A study of Mus musculus with 8 samples.

Results

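The 40 genes described here encode the presynaptic vesicle and its release machinery, and they were taken by gene symbol from the count files of RNA-seq on E15.5 mouse cortex. All 40 symbols were among the 23284 of the files, and all 40 had 10 or more reads in 4 or more libraries, so no member was left out. The study compared 4 libraries labelled ErbB4+/+ with 4 labelled ErbB4-/-, all from C57BL/6 embryos, to find genes whose expression in the cortex depends on ErbB4, a receptor tyrosine kinase for neuregulins. The study describes ErbB4 knockout mice in general as rescued by ErbB4 expressed in the heart from the α-MHC promoter and does not say so for these embryos, and both lines were bred as separate homozygous colonies. The tissue was dorsal cortex without meninges or ganglionic eminences, and the labels do not say whether embryos of one group shared a litter, so the p-values measure only the spread between these libraries.

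Neurons load neurotransmitter into small vesicles and release it when calcium enters the nerve terminal. A SNARE protein on the vesicle (Vamp) zips together with 2 partners on the plasma membrane (Stx1a, Snap25), calcium is sensed by synaptotagmins, and scaffold proteins of the active zone hold vesicles close to the release site. In the embryonic cortex at this stage few synapses exist, and many of these genes are switched on in new neurons while axons still grow.

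The number of reads counted per library was from 28205703 to 48871480. Levels are given as CPM, the count relative to a library size that was adjusted by edgeR's TMM factors. Differences were tested by quasi-likelihood in edgeR for the 14696 genes left after its low-count filter. Erbb4 itself had 8.99 to 25.3 CPM in the ErbB4+/+ libraries and 20.7 to 24.6 in those labelled ErbB4-/-, so its count was not lower in the latter and the genotypes given are those of the labels. ErbB4+/+ replicate 1 stood apart from the others, with a deviation from the other 7 libraries that fell with transcript length (Spearman's rho = -0.58 across genes, which are not independent replicates). In each of the other libraries rho was positive, from 0.04 in ErbB4-/- replicate 1 to 0.22 in ErbB4-/- replicate 4. ErbB4+/+ replicates 1 to 3 had 983 to 1687 CPM of Xist against 2.70 to 3.82 in the other 5 libraries, which are ErbB4+/+ replicate 4 and the whole ErbB4-/- group, so sex-linked expression cannot be told apart from genotype except through that single library.

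After adjustment edgeR called 0 members at a threshold of 0.05, and 4 of all genes tested (0.0272%). The smallest adjusted p of any member was 0.810. At an unadjusted p under 0.05 there were 3 members, all with higher levels in the ErbB4-/- libraries, and these were Syn3, Syt4 and Snap25. Among all genes, 3.00% had such a p with a higher level and 2.52% with a lower one. Leaving out a library moved both counts. Without ErbB4-/- replicate 2 there were 0 such members, beside 1.73% of all genes with a higher level, and without ErbB4+/+ replicate 2 there were 12, beside 4.85%. DESeq2's Wald test also called 0 members after adjustment, with 6 at an unadjusted p under 0.05, all higher beside 2.89% of all genes, and limma-voom called 0 with 5, all higher beside 3.27%. Without ErbB4+/+ replicate 1 there were 6, with 4 higher (beside 3.22% of all genes) and 2 lower, Syt2 and Rims2. With each library's trend with transcript length removed there were 5, with 4 higher (beside 3.99%) and 1 lower, Syt2. The direction of the small differences was mostly the same. Of the 40 members, 33 had a log2 fold change above 0, against 49.2% of all genes tested, and the median was 0.07 against 0.00 for all genes. Leaving out 1 library at a time, 28 to 35 members were above 0, with 31 in the absence of ErbB4+/+ replicate 1. The members were measured in the same 8 libraries, so these counts are a description and not 40 separate observations.

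**Figure D1:**
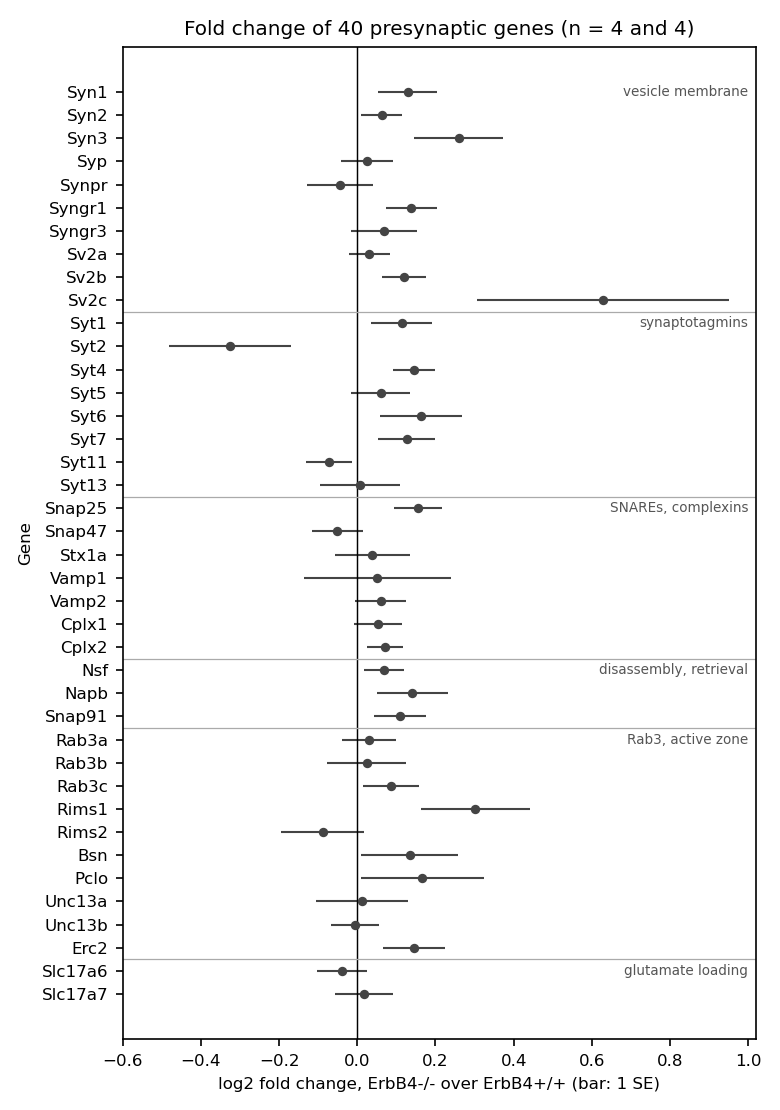
The log2 fold change of ErbB4-/- over ErbB4+/+ libraries is plotted for each of the 40 genes in edgeR's fit, grouped by role, with a bar of 1 SE on each side (n = 4 and 4). Most points lie between 0 and 0.2, Sv2c has the longest bar, and 33 of the points lie above 0.

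In 3 members every ErbB4-/- library was above every ErbB4+/+ library, against 1.86% of all genes. They were Syt4, Sv2b and Cplx2. In 0 members was every ErbB4-/- library below every ErbB4+/+ library, against 1.48% of all genes.

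Proteins of the vesicle membrane formed the first group of 10 genes, of which 9 had a log2 fold change above 0 and 1, Synpr (synaptoporin), was below it at -0.04 (0.02 without ErbB4+/+ replicate 2 and -0.09 without ErbB4-/- replicate 1). The synapsins tether vesicles to each other and to actin. Syn3, which lies on chromosome 10 from 85517870 to 85961641 (mm9), had 72.7, 113, 101 and 102 CPM in ErbB4+/+ replicates 1 to 4 and 122, 125, 108 and 110 CPM in ErbB4-/- replicates 1 to 4. Its ErbB4+/+ replicate 1 was the lowest of the 8 libraries by a wide margin, and ErbB4+/+ replicate 2 lay among the ErbB4-/- libraries. The log2 fold change was 0.26 (SE 0.11, unadjusted p = 0.0416, adjusted p = 0.810 in edgeR's test), with 0.14 without ErbB4+/+ replicate 1 and 0.34 without ErbB4+/+ replicate 2. For Syn1 the log2 fold change was 0.13 (SE 0.075), and for Syn2 it was 0.06 (SE 0.052). With Xist as a covariate they were 0.05 and 0.01.

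Syp, synaptophysin, was the most abundant gene of this group in CPM, with 243, 219, 193 and 216 in ErbB4+/+ replicates 1 to 4 and 229, 219, 225 and 211 in ErbB4-/- replicates 1 to 4. The 4 ErbB4-/- values lay inside the ErbB4+/+ range, the log2 fold change was 0.02 (SE 0.067), and without ErbB4+/+ replicate 3 it was -0.03. Syn1 and Syp are the 2 members on the X chromosome. Syn1 had 97.4 to 118 CPM in ErbB4+/+ replicates 1 to 3 and 113 in ErbB4+/+ replicate 4, the library with low Xist, so that library lay inside the range of the other 3 for both genes.

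Promoter windows were read from RefSeq (GRCm38.p6), each from 250 bases before to 50 after a start, to see whether members share a motif. There were 42 windows for 31 of the members. Rims2, Snap25, Syn3, Syngr3, Syt13, Syt4, Syt5, Syt7 and Vamp2 had no window in the table. The full cAMP response element TGACGTCA, which reads the same on both strands, was in 1 of the 42 windows (2.38%) and in 2.91% of the windows of all tested genes. The TATAAA box, searched on both strands, was in 3 windows (7.14%, against 7.30%), those of Rab3b and Sv2b. The RE1 consensus, bound by the repressor REST in many neuronal genes, was in 0 windows, against 0.083% of all. With a share that low, 42 windows cannot show whether the members differ from other genes. Sites outside the windows were not searched. These stretches are shown because they hold the single full cAMP element and the only TATAAA on the coding strand, in capitals. The first lies on the X chromosome (chrX:20921050-20921097, minus strand) with its element starting 159 bases before the start, and the second at chr4:108878930-108878975, plus strand, with its box starting 120 bases before the start.

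Syn1: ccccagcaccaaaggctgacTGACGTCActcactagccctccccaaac

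Rab3b: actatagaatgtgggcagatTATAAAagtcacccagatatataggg

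Syn1 with this element had a log2 fold change of 0.13 and Rab3b of 0.02, both without a call. A match is a description of the letters in the window. It does not show a bound site.

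Sv2a, Sv2b and Sv2c are a family of vesicle glycoproteins, and Sv2a is the binding site of the antiepileptic drug levetiracetam. Sv2b, on chromosome 7 from 82259783 to 82454148, had 38.0, 37.4, 37.1 and 37.1 CPM in ErbB4+/+ replicates 1 to 4 and 38.9, 41.5, 40.8 and 41.3 in ErbB4-/- replicates 1 to 4. The ErbB4+/+ libraries agreed to within 1 CPM and all lay below the lowest ErbB4-/- library, with a log2 fold change of 0.12 (SE 0.056, unadjusted p = 0.0559, adjusted p = 0.810 in edgeR's test). Sv2c had the highest log2 fold change of the members, 0.63, but also the largest error (SE 0.32), with 42 to 295 reads per library. It had 1.5 to 5.39 CPM in ErbB4+/+ and 3.27 to 7.07 CPM in ErbB4-/- libraries, which overlap, and the log2 fold change was 0.40 without ErbB4+/+ replicate 1 and 0.92 without ErbB4+/+ replicate 2. The synaptogyrins Syngr1 and Syngr3 had log2 fold changes of 0.14 (SE 0.065) and 0.07 (SE 0.084), and Sv2a of 0.03 (SE 0.053). With each library left out in turn Syngr3 was from 0.02 to 0.12 and Sv2a from 0.00 to 0.06, both lowest without ErbB4+/+ replicate 3.

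Among the 8 synaptotagmins, 6 had a log2 fold change above 0. Syt4 binds calcium poorly compared with Syt1 and is found on dense-core vesicles and in the Golgi region. It had 319, 317, 309 and 306 CPM in ErbB4+/+ replicates 1 to 4 and 348, 373, 342 and 321 in ErbB4-/- replicates 1 to 4. The gap between the highest ErbB4+/+ library and the lowest ErbB4-/- library was small, 319 against 321 CPM. Its log2 fold change was 0.15 (SE 0.055, unadjusted p = 0.0217, adjusted p = 0.810 in edgeR's test), and it was from 0.11 to 0.18 with each library left out in turn.

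Syt11, which does not bind calcium and acts in membrane retrieval, was the most abundant member in CPM. It had 536, 474, 499 and 461 CPM in ErbB4+/+ replicates 1 to 4 and 476, 443, 485.1 and 471 in ErbB4-/- replicates 1 to 4. The genotypes overlapped, and its log2 fold change was -0.07 (SE 0.059), with -0.03 without ErbB4+/+ replicate 1 and 0.01 with Xist as a covariate. The calcium sensors of fast release, Syt1 and Syt2, had log2 fold changes of 0.11 (SE 0.078) and -0.33 (SE 0.16). Syt2 rested on 61 to 113 reads per library and was the member with the lowest log2 fold change (unadjusted p = 0.0612, adjusted p = 0.810 in edgeR's test). Of the others, Syt5 had 0.06 (SE 0.075), Syt6 0.16 (SE 0.11), Syt7, a slow high-affinity sensor, 0.13 (SE 0.073) and Syt13 0.01 (SE 0.10). The range with single libraries dropped was 0.06 to 0.19 for Syt1, 0.01 to 0.10 for Syt5, 0.08 to 0.25 for Syt6, 0.08 to 0.17 for Syt7 and -0.04 to 0.10 for Syt13. ErbB4+/+ replicate 1 set the lower end for Syt1, Syt6 and Syt7, ErbB4-/- replicate 1 for Syt5 and ErbB4+/+ replicate 3 for Syt13.

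The core fusion proteins and complexins, 7 genes, had 6 log2 fold changes above 0 and 1, Snap47, below at -0.05 (SE 0.064). Snap25, the plasma membrane SNARE that is cut by botulinum toxin A, lies on chromosome 2 from 136539189 to 136608164. It had 168, 168, 153 and 150 CPM in ErbB4+/+ replicates 1 to 4 and 178, 186, 185 and 162 in ErbB4-/- replicates 1 to 4. In 3 of the ErbB4-/- libraries it was above every ErbB4+/+ library, while ErbB4-/- replicate 4 lay among them. The log2 fold change was 0.16 (SE 0.062, unadjusted p = 0.0271, adjusted p = 0.810 in edgeR's test).

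Cplx2, a complexin that clamps and then promotes SNARE-driven fusion, lies on chromosome 13 from 54472713 to 54485278. It had 396, 382, 381 and 402 CPM in ErbB4+/+ replicates 1 to 4 and 406, 412, 412 and 409 CPM in ErbB4-/- replicates 1 to 4. The ErbB4-/- libraries differed by little from each other (SD 2.93) and all lay above the ErbB4+/+ libraries (SD 10.6). The log2 fold change was 0.07 (SE 0.046, unadjusted p = 0.151, adjusted p = 0.810 in edgeR's test), with 0.03 after removal of the length trend and 0.02 with Xist as a covariate. The vesicle SNAREs Vamp1 and Vamp2 had 0.05 (SE 0.19) and 0.06 (SE 0.066), Stx1a (syntaxin 1A) 0.04 (SE 0.095) and Cplx1 0.05 (SE 0.062). With each library left out in turn Vamp1 was from -0.07 to 0.17, Stx1a from -0.02 to 0.10, Vamp2 from 0.01 to 0.09 and Cplx1 from 0.02 to 0.09. Dropping ErbB4+/+ replicate 3 gave -0.09 for Snap47, and dropping ErbB4+/+ replicate 1 gave 0.00.

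After fusion, Nsf, an ATPase, with its adaptor Napb (β-SNAP) takes SNARE complexes apart, and Snap91 (AP180) is a clathrin adaptor of vesicle retrieval. All 3 genes had log2 fold changes above 0, with 0.07 for Nsf (SE 0.052), 0.14 for Napb (SE 0.091) and 0.11 for Snap91 (SE 0.067). Napb was 0.06 without ErbB4+/+ replicate 1 and 0.22 without ErbB4+/+ replicate 2, and Snap91 was 0.17 without the latter. Snap91 had 157, 189, 161 and 164 CPM in ErbB4+/+ replicates 1 to 4 and 190, 186, 181 and 167 in ErbB4-/- replicates 1 to 4. ErbB4+/+ replicate 2 was just below the highest ErbB4-/- library, and the other 3 ErbB4+/+ libraries were below all ErbB4-/- libraries (unadjusted p = 0.132, adjusted p = 0.810 in edgeR's test).

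The small GTPases Rab3a, Rab3b and Rab3c guide vesicles to the active zone, where Rims1 and Rims2 bind them and Unc13a and Unc13b (Munc13 proteins) prime them for release. Of the 10 genes of this group, 8 had a log2 fold change above 0. Rab3c had 277, 352, 331 and 322 CPM in ErbB4+/+ replicates 1 to 4 and 333, 339, 358 and 331 in ErbB4-/- replicates 1 to 4, a log2 fold change of 0.09 (SE 0.071), and 0.02 without ErbB4+/+ replicate 1, 0.13 without ErbB4+/+ replicate 2 and 0.01 with the length trend removed. Rab3a and Rab3b had 0.03 (SE 0.069) and 0.02 (SE 0.10). Dropping single libraries gave -0.02 to 0.10 for Rab3a and -0.05 to 0.06 for Rab3b.

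Rims1, on chromosome 1 from 22276332 to 22911673, had 14.1, 24.2, 17.9 and 20.3 CPM in ErbB4+/+ replicates 1 to 4 and 25.2, 24.6, 24.0 and 20.5 in ErbB4-/- replicates 1 to 4. ErbB4+/+ replicate 1 was the lowest library, and ErbB4+/+ replicates 3 and 4 also lay below every ErbB4-/- library. ErbB4+/+ replicate 2 was within the ErbB4-/- range. The log2 fold change was 0.30 (SE 0.14, unadjusted p = 0.0520, adjusted p = 0.810 in edgeR's test) with 0.19 without ErbB4+/+ replicate 1 and 0.43 without ErbB4+/+ replicate 2. Its paralog Rims2 had -0.09 (SE 0.11), with -0.18 without ErbB4+/+ replicate 1 and 0.02 without ErbB4+/+ replicate 2.

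Bsn and Pclo (Bassoon and Piccolo) are very large scaffold proteins of the active zone, with longest transcripts of 15937 and 20082 nucleotides. Their log2 fold changes were 0.13 (SE 0.12) and 0.17 (SE 0.16), and both were 0.00 without ErbB4+/+ replicate 1, the library whose deviation fell with transcript length. Erc2, another scaffold, had 0.14 (SE 0.079) and 0.07 without that library. Unc13a and Unc13b had 0.01 (SE 0.12) and -0.01 (SE 0.060), and without that library -0.09 and -0.05. At the other end Unc13a was 0.09 and Erc2 0.20 without ErbB4+/+ replicate 2, Bsn 0.20 and Unc13b 0.03 without ErbB4+/+ replicate 4, and Pclo 0.25 without ErbB4+/+ replicate 3.

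The last group holds the vesicular glutamate transporters, which fill vesicles with glutamate, and its median log2 fold change was -0.01. Slc17a6 (VGLUT2) had 82.1, 87.6, 85.3 and 90.2 CPM in ErbB4+/+ replicates 1 to 4 and 83.9, 77.5, 82.2 and 92.5 in ErbB4-/- replicates 1 to 4, with a log2 fold change of -0.04 (SE 0.064). Slc17a7 (VGLUT1) had 0.02 (SE 0.074). Without ErbB4-/- replicate 4 they were -0.09 and -0.04, without ErbB4-/- replicate 2 Slc17a6 was -0.00, and without ErbB4+/+ replicate 4 Slc17a7 was 0.08. The highest value of Slc17a6 in each genotype was in replicate 4, and the genotypes overlapped throughout.

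**Figure D2:**
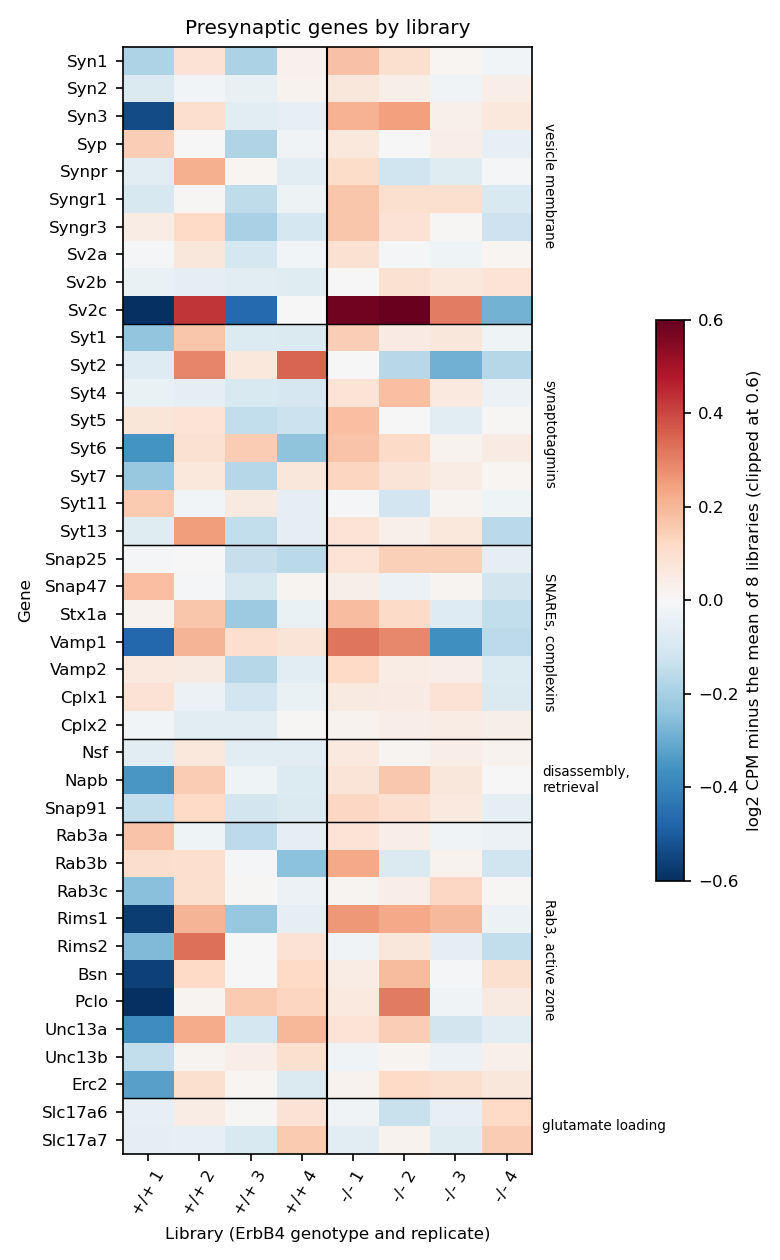
Each cell is the log2 CPM of a gene in a library minus its mean over the 8 libraries, with genes in rows by role and the 4 ErbB4+/+ libraries left of the black line. ErbB4+/+ replicates 1 and 3 hold the lowest value of 17 and 12 genes, while ErbB4+/+ replicate 2 and ErbB4-/- replicate 1 hold the lowest value of 0.

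The libraries of one genotype were not alike. ErbB4+/+ replicate 1 held the lowest value of 17 of the 40 members (42.5%, against 29.5% of all genes) and ErbB4+/+ replicate 3 of 12 (30%, against 13.7%). ErbB4+/+ replicate 2 held the lowest value of none and the highest of 6, with a median deviation of 0.09 on the log2 scale from the mean of the 8 libraries, next to 0.08 in ErbB4-/- replicate 1. The latter held the highest value of 14 members (35%, against 8.76% of all genes), whereas ErbB4-/- replicate 4 held the highest of 1 and had a median deviation of -0.03. The SD of CPM was larger among the ErbB4+/+ than among the ErbB4-/- libraries in 32 members and in 71.5% of all genes. Against ErbB4+/+ replicate 4 alone, the library with low Xist, the mean of the 4 ErbB4-/- libraries was higher in 29 of 40 members (72.5%) and in 50.1% of all genes. A single library allows no test of that difference.

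**Figure D3:**
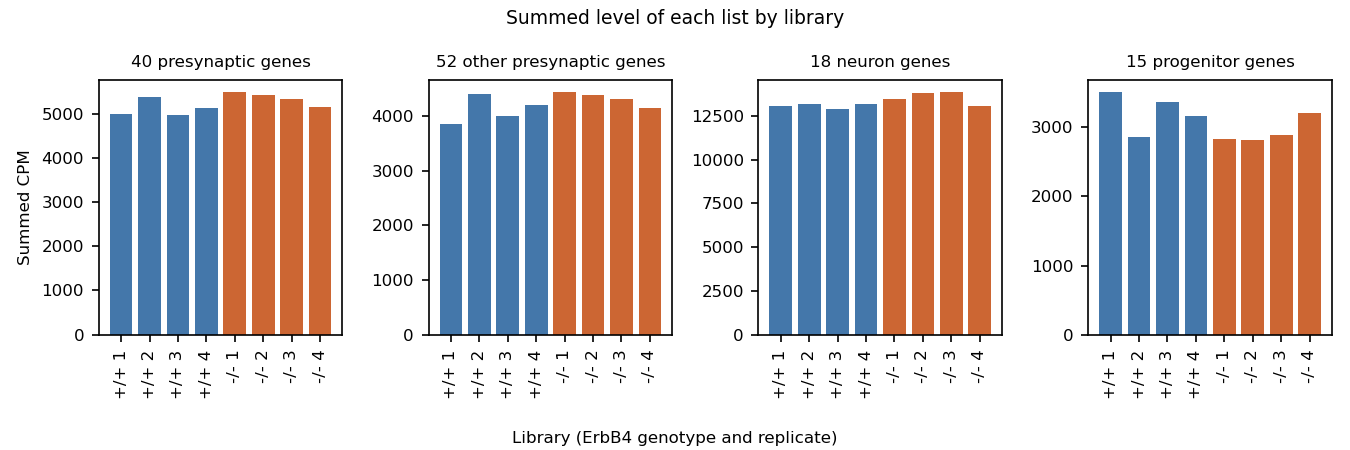
Bars give the summed CPM of each list in each library, with ErbB4+/+ libraries in blue and ErbB4-/- libraries in orange. The presynaptic genes sum to 4958 to 5380 CPM in ErbB4+/+ and 5154 to 5484 in ErbB4-/- libraries, and the progenitor genes are lowest in ErbB4+/+ replicate 2 and ErbB4-/- replicates 1 to 3.

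Other cell types were followed by their marker genes. In bulk tissue, fewer cells of a type and less RNA per cell cannot be told apart. The summed level of the 40 members was 4996, 5380, 4958 and 5121 CPM in ErbB4+/+ replicates 1 to 4 and 5484, 5423, 5329 and 5154 in ErbB4-/- replicates 1 to 4, so the genotypes overlapped. The 15 markers of cortical progenitors, such as Pax6, Hes1 and Nes, summed to 3506, 2856, 3365 and 3154 CPM in ErbB4+/+ replicates 1 to 4 and 2834, 2809, 2885 and 3203 in ErbB4-/- replicates 1 to 4. ErbB4+/+ replicate 2 was thus the ErbB4+/+ library with the most presynaptic and the least progenitor RNA, and ErbB4-/- replicate 4 was the reverse among the ErbB4-/- libraries. Of these 15 markers, 1 had a log2 fold change above 0 (49.2% of all genes) and 14 below it, with a median of -0.19. At an unadjusted p under 0.05 there were 5, all lower (2.52% of all genes), and 0 after adjustment in edgeR's test.

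The 18 markers of cortical neurons summed to 12897 to 13213 CPM in ErbB4+/+ and 13067 to 13863 in ErbB4-/- libraries, and 13 of the 18 were above 0, with a median of 0.03. Interneuron markers summed to 689 to 888 CPM in ErbB4+/+ and 672 to 886 in ErbB4-/- libraries, with 5 of 11 above 0 and 6 below. Among them 1, Sst (somatostatin), had an unadjusted p under 0.05, at -0.23 (SE 0.097, unadjusted p = 0.0330, adjusted p = 0.810 in edgeR's test). For microglia these sums were 53.3 to 63.2 and 53.7 to 63.9 CPM, for endothelial cells 153 to 172 and 157 to 165, for the meninges 62.4 to 69.0 and 65.1 to 87.9, and for astroglia 160 to 199.1 and 176 to 205. The astroglial sum was mostly Slc1a2 and does not show its weakest markers. Gfap, an intermediate filament of astroglia, had 0.571, 0.930, 0.652 and 0.798 CPM in ErbB4+/+ replicates 1 to 4 and 1.89, 2.07, 1.23 and 0.858 in ErbB4-/- replicates 1 to 4, a log2 fold change of 1.04 (SE 0.30, unadjusted p = 0.00454, adjusted p = 0.810 in edgeR's test) on 16 to 93 reads per library. Of the 5 astroglial markers tested, 3 were above 0 and 2 below with a median of 0.06. The others were Aqp4 at 0.48 (SE 0.24), Slc1a2 at 0.06 (SE 0.11), Aldh1l1 at -0.01 (SE 0.12) and Gja1 at -0.03 (SE 0.096). Erythroid markers summed to 33.1 to 57.6 and 23.1 to 36.3 CPM. Of the 9, 3 had 0 reads in all libraries, and among the 5 tested 2 were above 0 and 3 below. The globins Hba-a1, Hba-a2, Hbb-b1 and Hbb-b2 had at most 1 read in a library. The erythroid sum thus leaves these globins out and is no measure of all erythroid RNA. Both embryonic globins were lower at an unadjusted p under 0.05, with Hba-x at -1.23 (SE 0.31, unadjusted p = 0.00221, adjusted p = 0.740 in edgeR's test) and Hbb-y at -1.72 (SE 0.45, unadjusted p = 0.00271, adjusted p = 0.810). Hbb-y had 34.6, 31.6, 26.3 and 13.9 CPM in ErbB4+/+ replicates 1 to 4 and 3.69, 4.05, 6.74 and 18.3 in ErbB4-/- replicates 1 to 4, so the genotypes overlapped through replicate 4 of each. The microglial, endothelial and meningeal markers had 0 at that p, with 5 of 8, 4 of 7 and 4 of 5 above 0. The part of these cell types in the difference of the members was not tested.

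A second list of 52 presynaptic genes that are not among the 40, such as those for priming, endocytosis and vesicle acidification, was compared in the same fit. Of the 51 tested, 39 had a log2 fold change above 0 (49.2% of all genes), with a median of 0.07, and 0 passed the adjusted threshold in edgeR's test. At an unadjusted p under 0.05 there were 3, all higher in the ErbB4-/- libraries (3.00% of all genes). They were Sh3gl2 (endophilin A1, which bends membranes in endocytosis) at 0.22 (SE 0.068), Ppfia2 (liprin-α2, an active zone scaffold) at 0.19 (SE 0.070) and Scamp1, a vesicle carrier protein, at 0.10 (SE 0.044). The median and the share above 0 were close to those of the 40 members.

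Levels can be compared between genes only per length, and CPM was therefore divided by the longest annotated transcript in kilobases. This is a rough scale, since the isoforms in use are not known. On it the most abundant members were Rab3a with 137 ± 9.48 CPM per kilobase (SD, n = 8), Vamp2 with 135 ± 8.86 and Snap47 with 131 ± 8.47, which do not differ by more than their spread. Next were Syt11 at 95.8 ± 5.50, Syt4 at 84.4 ± 5.86, Cplx2 at 81.2 ± 2.57 and Syp at 77.2 ± 5.06. The least abundant were Rims1 at 3.42 ± 0.625, Pclo at 2.96 ± 0.529, Vamp1 at 1.20 ± 0.239, Sv2c at 1.03 ± 0.427 and Syt2 at 0.337 ± 0.0556. Several of the weakest, such as Vamp1 and Syt2, are known as the forms of brainstem and spinal cord synapses, while Vamp2 and Syt1 serve the forebrain.

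**Figure D4:**
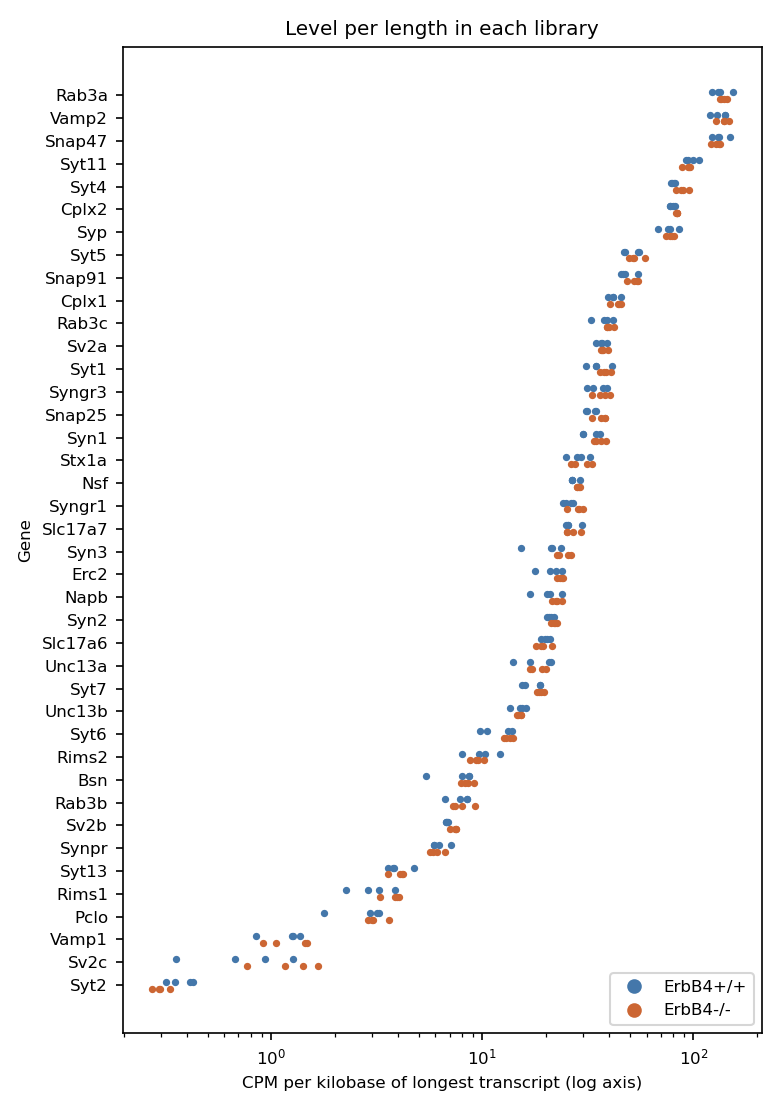
Each point is 1 library, placed at its CPM per kilobase of the longest transcript on a log axis, with genes ordered by their mean over the 8 libraries. The order runs from Rab3a at 137 to Syt2 at 0.337 CPM per kilobase, and the genotypes overlap in all genes but Syt4, Sv2b and Cplx2.

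Ratios within paralog pairs compare a gene with a close relative in the same library and do not depend on the scaling between libraries. The ratios are of CPM per kilobase. For each of 14 pairs the log2 ratio was compared by an exact permutation test (two-sided), which cannot go below p = 0.0286 for 4 against 4. The ratios and this test were not planned in advance. The adjustment over the 14 does not cover the choice of the pairs. In 3 pairs the genotypes did not overlap (p = 0.0286 each in the exact test, and 0.133 after Benjamini-Hochberg adjustment over the 14). None of the 14 therefore passed after adjustment. How often the ratios of other gene pairs separate in this way was not computed. For single genes the shares were 1.86% with all ErbB4-/- libraries above and 1.48% with all below. A ratio can separate at another rate than a gene, so the 3 pairs are a description.

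The ratio of Rims1 to Rims2 was 0.281, 0.320, 0.298 and 0.316 in ErbB4+/+ replicates 1 to 4 and 0.424, 0.388, 0.413 and 0.376 in ErbB4-/- replicates 1 to 4. Unlike the CPM of either gene, the ratio in ErbB4+/+ replicates 1 and 2 was like that of the other ErbB4+/+ libraries, and all 4 lay well below the ErbB4-/- libraries. The means were 0.304 ± 0.0177 and 0.400 ± 0.0220 (SD, n = 4 each), a quotient of 1.32 that was 1.30 with each library's trend with transcript length removed.

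For Syt1 to Syt2 the ratio was 98.3, 100.1, 99.3 and 80.9 in ErbB4+/+ replicates 1 to 4 and 122, 128, 141 and 122 in ErbB4-/- replicates 1 to 4. Here ErbB4+/+ replicate 4 was the lowest, and the quotient of the means was 1.35, with 1.29 in the absence of that library and 1.38 with the length trend removed. Since Syt2 had at most 113 reads in a library, counting error weighs on this ratio.

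Snap25 to Snap47 gave 0.231, 0.264, 0.255 and 0.233 in ErbB4+/+ replicates 1 to 4 and 0.272, 0.298, 0.287 and 0.274 in ErbB4-/- replicates 1 to 4. The quotient was 1.15, and with the length trend removed it was 1.09 and the genotypes overlapped. In the other 11 pairs the genotypes overlapped. Slc17a6 to Slc17a7 was 0.760 ± 0.0417 and 0.730 ± 0.0449 (SD, n = 4 each, exact permutation p = 0.371), and Cplx2 to Cplx1 was 1.89 ± 0.0926 and 1.92 ± 0.104 (exact permutation p = 0.771).

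**Figure D5:**
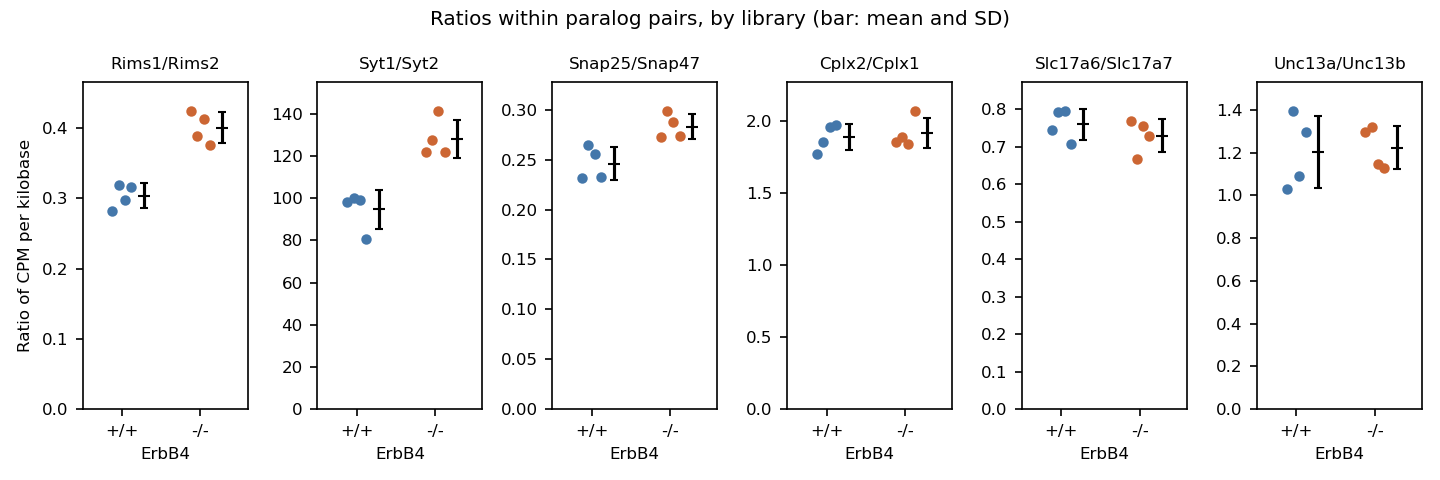
The ratio of CPM per kilobase is plotted for 6 of the 14 paralog pairs, with 1 point per library and the mean and SD beside them (n = 4 per genotype). The genotypes are apart for Rims1/Rims2, Syt1/Syt2 and Snap25/Snap47 and overlap for the other 3 pairs.

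Rims1 and Syt2 are also the 2 members that lie on chromosome 1, which carries Erbb4. Rims1 is 45.2 Mb from the nearer end of Erbb4, and Syt2, from 136605877 to 136649726, is 67.5 Mb away on its other side. Transcript length was the other property followed over the members. Their median longest transcript was 4304 nucleotides against 3168 for all tested genes with a length, and across the 40 members the log2 fold change had a Spearman's rho of 0.22 with length, against 0.33 across all genes. With the length trend removed from each library, 32 members were above 0 with a median log2 fold change of 0.06. Single members moved more than the median. With the trend removed, 18 of the 40 stayed within 1.5 times their value, 10 were smaller and 11 larger by more than that, and 1 had the other sign. Sv2b, for one, was 0.07 instead of 0.12.

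The fit with the Xist level as a covariate compares the genotypes mainly through ErbB4+/+ replicate 4. In it 32 members were above 0 with a median of 0.06. Of the 40, 18 stayed within 1.5 times their value, 6 were smaller and 11 larger by more than that. The smaller ones were Syn1, Syn2, Syt7, Vamp1, Cplx2 and Pclo, and Syt7 and Vamp1 were at 0.00. The other 5, Synpr, Syt11, Bsn, Unc13a and Slc17a7, had the other sign. Snap25 was 0.24. Since the comparison rests on 1 library on the ErbB4+/+ side, these values are given without p-values. The counts from this fit given under the processing carry the same limit.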

How the data were processed

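Poly(A) RNA of 8 cortex samples was sequenced as single-end reads from non-stranded libraries, which the authors mapped to mm9 with HISAT and counted per gene with HTSeq-count. Their deposited count files hold raw counts, 1 whole number per gene symbol, with no normalization. The annotation and the counting mode are not given in the sources used here, so reads shared by paralogs may have been lost or split. A deposited table of the authors' DESeq2 comparison (fold changes and p-values) was not used.

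The counts were analysed with edgeR 4.0.16 (TMM, filterByExpr with a minimum count of 10, glmQLFit, glmQLFTest) in R 4.3.3. Benjamini-Hochberg adjustment ran over 14696 genes, with 0.05 as threshold. SE is the log2 fold change over the square root of F. The alternatives used DESeq2 1.42.0 and limma 3.58.1. The edgeR fit reported, DESeq2 and limma-voom were tested on simulated data, and the other refits were not. Positions and transcript lengths are those of GENCODE for NCBIM37 (mm9).

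The members and lists were chosen with earlier results of these data known. Every member is given with its log2 fold change. Values per library are given, in each role group, for the member with the smallest p and for the most abundant one, and for any member with p under 0.05. Sv2b, Sv2c and the genes of the ratios were added after their values were seen, as were the ratios with a library left out or the length trend removed. The ratios themselves and their permutation test were also not planned. The result of 1 marker of the cortical neuron list is not reported here. Figures were drawn with matplotlib 3.10.9.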

Additional observations from a re-analysis of the deposited data

How the results depend on the processing

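In none of the 17 refits did a member pass the adjusted threshold, and the smallest adjusted p of a member was from 0.478 to 0.9998. The number of genes called in all was 4 in the fit reported, 23 with DESeq2, 2 with the length trend removed and 1 with relative log expression or upper-quartile factors, with Xist as a covariate or with the replicate number as a block. With a single library left out it lay between 1 and 13. The 13 arose on dropping ErbB4+/+ replicate 4, and dropping ErbB4+/+ replicate 3 or any of ErbB4-/- replicates 1 to 3 left 1. Dropping ErbB4+/+ replicate 2 or ErbB4-/- replicate 4 left 2. The number of members at an unadjusted p under 0.05 was 3, and became 6 with DESeq2 or the replicate block, 5 with limma-voom, upper-quartile factors or the length trend removed, and 1 with Xist as a covariate, a fit that rests on 1 ErbB4+/+ library. With a library left out it lay between 0 (ErbB4-/- replicate 2 dropped) and 12 (ErbB4+/+ replicate 2 dropped), and over all genes such p-values numbered 430 and 1394 there, against 812 in the fit reported. They numbered 962 with DESeq2, 1025 with the block, 840 with limma-voom, 809 with upper-quartile factors, 1036 with the length trend removed and 247 with Xist as a covariate. Dropping ErbB4+/+ replicate 1 gave 6 members at that p, 4 higher and 2 lower, beside 880 of all genes. Dropping ErbB4-/- replicate 4 gave 6 beside 1145. With the length trend removed, 4 of the 5 members were higher and 1 was lower. Leaving out ErbB4+/+ replicate 3 gave 2 members beside 855 genes, and leaving out ErbB4-/- replicate 3 gave 2 beside 507. With ErbB4+/+ replicate 4 absent there was 1 member beside 732 genes, and with ErbB4-/- replicate 1 absent 1 beside 535. The causes were not tested.

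The median log2 fold change of the members stayed between 0.05 and 0.10 and the number above 0 between 28 and 35. Of the 40 members, 26 kept their sign in all 17 settings that refitted the data. Of those given by library, Syp was -0.0292 without ErbB4+/+ replicate 3 and 0.0812 without ErbB4+/+ replicate 1, and Syt11 was 0.0125 with Xist as a covariate. Libraries with the same replicate number did not share deviations in every pair (correlations of 0.084, 0.135, 0.048 and 0.024), 5 of 8 libraries correlated best with their own number, and the numbers were not taken as pairs. The common biological coefficient of variation over all genes was 10.7%. Cplx2 had the smallest SE of a member, 0.046 on the log2 scale. The smallest difference in a member that 4 libraries per genotype could resolve was not tested.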
